A study of Mus musculus with 6 samples.

Results

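The B cell lineage genes were followed across the 6 arrays of a study of sorted mouse lung cells. The members were Cd79a, Cd79b, Ms4a1, Cd22, Blk, Bank1, Fcrla, Pax5 and Pou2af1, 9 of the 18193 genes that the array's probe table names singly. The genes were proposed with earlier results of these data known. The probe set of each gene was chosen by its mean log2 signal over the 6 arrays, taking the brightest, so levels are given as a description. The difference between the groups was not used to pick the probe set. All 9 passed the filter on dim signals, which asked for 3 of 6 arrays, and entered the test across 13335 genes. Cd79a and Pax5 met the filter's level on 3 adult arrays and 1 E18 array, and Blk on 3 adult and 2 E18 arrays. These genes therefore entered only through the adult arrays, where they were higher.

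The adult group was 3 samples of cells sorted for Lyz2 and EpCAM from adult lungs. The series names them alveolar type II cells, which make and secrete surfactant. The E18 group was 3 samples of lung cells taken on embryonic day 18 and sorted for Muc1 and Pdpn. The series names these bipotent progenitors, fetal epithelial cells that give rise to both alveolar cell types. Every sample is labelled a biological replicate and was hybridised to 1 Affymetrix 3' expression array. Neither gate is a B cell gate, and age and sorted population differ together. Strain, sex, any transgene behind the sort and pooling of animals were not given in the sources used here, so a p-value measures the spread between these samples.

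B cells recognise antigen through a membrane immunoglobulin that has almost no cytoplasmic tail of its own. Signals pass through the associated pair of Cd79a and Cd79b, whose tails are phosphorylated by Src-family kinases and then recruit further kinases and adaptors. Lineage identity is held by transcription factors that switch on these receptor components, and mature B cells reside in the lung in small numbers, in the circulation and in lymphoid aggregates.

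Values are log2 of the deposited signal, and differences are adult minus E18, so that positive values are higher in the adult arrays. The detection floor is the 40th percentile of all probe sets of an array, at a log2 signal of 5.8, 5.4 and 6.05 in adult replicates 1, 2 and 3 and of 5.74, 5.65 and 6.10 in E18 replicates 1, 2 and 3. This floor is set by rank and is no measure of background. Adjusted p-values come from limma's two-sided test, adjusted by the Benjamini-Hochberg method over 13335 genes, and a gene is said to have passed at an adjusted p under 0.05.

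A pair of array features bears on every result that follows. The replicates numbered 3 of both groups had far brighter poly-A spike-in probe sets, with median log2 signals of 14.49 in adult replicate 3 and 13.99 in E18 replicate 3, against 6.6 to 9.63 in the other arrays. No label names a batch, so results are also given within replicates 1 and 2 and within replicate 3. Adult replicate 1 had the widest gap between 3' and 5' Gapdh probe sets (a measure of RNA integrity and amplified length), at 4.62 log2 units against 2.23 to 2.63 in the other 5 arrays.

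All 9 genes had higher mean signals in the adult arrays, but only 2 passed the test across all genes. Pou2af1 and Cd22 rose, by 22.8-fold and 16.2-fold, and the other 7 did not pass. Of all tested genes 1.41% were called higher in adult, 4.57% lower and 5.98% in either direction. The median difference of the 9 genes was 3.77, beside -0.17 over all genes tested. Each of the 9 was above every E18 array in adult replicates 1 and 2, as were 18% of all genes tested. Each was lowest among the adult arrays in adult replicate 3, as were 29.2% of all genes tested. In a sorted population, fewer cells of a type and less RNA per cell cannot be told apart.

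**Figure D1:**
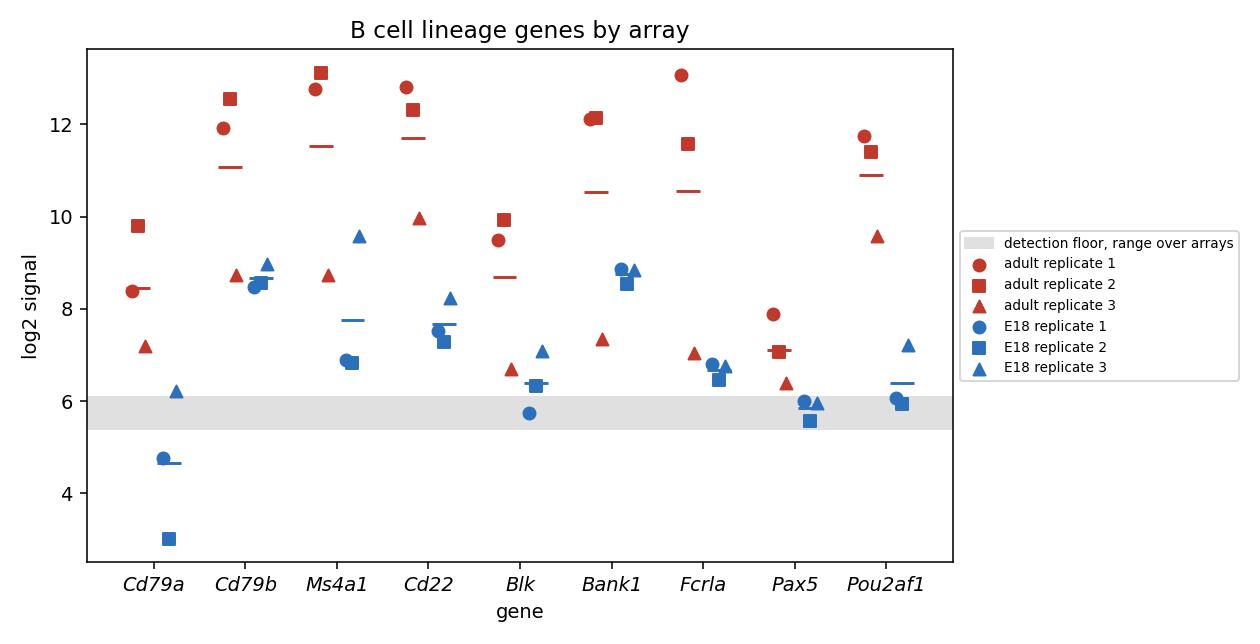
Log2 signal of the 9 B cell lineage genes in each array, with adult arrays on the left and E18 arrays on the right of each gene, 1 symbol per replicate and a line at each group mean. The grey band spans the detection floors of the 6 arrays. Circles and squares of the adult group stand above every E18 symbol for all 9 genes, as for 18% of all genes tested. The adult triangle falls among or below the E18 symbols for 4 of the 9.

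Cd79a and Cd79b encode the signalling chains of the B cell receptor. Cd79a (probe set 1418830_at) had log2 signals of 8.38, 9.79 and 7.20 in adult replicates 1, 2 and 3, against 4.77, 3.01 and 6.21 in E18 replicates 1, 2 and 3. All adult values lay above all E18 values, and E18 replicates 1 and 2 were under the floor. The difference was 3.79 (8.46 ± 1.30 against 4.66 ± 1.60, SD, n = 3 each, SE 0.94) and did not pass in limma (adjusted p = 0.061). With signals under the floor set to it the difference was 2.59 (limma adjusted p = 0.0505).

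Cd79b (1417640_at) stood at 11.92, 12.56 and 8.73 in adult replicates 1, 2 and 3, against 8.48, 8.56 and 8.97 in E18 replicates 1, 2 and 3. Adult replicates 1 and 2 exceeded the brightest E18 array by at least 2.94, whereas adult replicate 3 lay 0.25 below it, so the groups overlapped. Its difference of 2.40 (SE 0.91) did not pass (limma adjusted p = 0.179). The chain was well above the floor in all 3 E18 arrays, whereas Cd79a reached it in 1.

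Ms4a1 encodes the B cell membrane protein that depleting antibodies target. Its signals were 12.77, 13.12 and 8.74 in adult replicates 1, 2 and 3, against 6.89, 6.83 and 9.59 in E18 replicates 1, 2 and 3 (1423226_at). Adult replicate 3 was lower than E18 replicate 3, and E18 replicate 3 was 2.73 above the mean of E18 replicates 1 and 2. The difference of 3.77 (11.54 ± 2.43 against 7.77 ± 1.58, SD, n = 3 each) did not pass (limma adjusted p = 0.134).

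Cd22, a sialic acid-binding receptor that restrains B cell receptor signalling, rose in the adult arrays. It had signals of 12.81, 12.31 and 9.97 in adult replicates 1, 2 and 3, against 7.52, 7.29 and 8.23 in E18 replicates 1, 2 and 3 (1419768_at). The groups did not overlap, with adult replicate 3 still 1.73 above the highest E18 array. The difference was 4.01 (SE 0.72, limma adjusted p = 0.0227). The call held without adult replicate 3 (4.88, adjusted p = 0.00108) but was lost when any other single array was left out. Adjusted p-values were 0.0643 and 0.101 on leaving out adult replicates 1 and 2. They were 0.109, 0.112 and 0.0549 on leaving out E18 replicates 1, 2 and 3. Calls over all genes also fell where the Cd22 call was lost, from 798 to 572 and 226 without adult replicates 1 and 2. Without E18 replicates 1, 2 and 3 they fell to 69, 66 and 505, whereas without adult replicate 3 they rose to 2770.

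Blk and Bank1 act just inside the membrane. Blk, a Src-family kinase of B cells that some T cells also make, had signals of 9.49, 9.92 and 6.70 in adult replicates 1, 2 and 3, against 5.74, 6.34 and 7.09 in E18 replicates 1, 2 and 3. Adult replicate 3 fell between E18 replicates 2 and 3, and the difference of 2.31 did not pass (limma adjusted p = 0.17). Bank1, a scaffold protein that links the receptor to kinases and calcium release, stood at 12.12, 12.15 and 7.34 in adult replicates 1, 2 and 3, against 8.87, 8.54 and 8.85 in E18 replicates 1, 2 and 3. It was the 1 gene of the 9 whose signal in adult replicate 3 lay below all E18 arrays, and its difference of 1.78 had the highest adjusted p of the 9 (limma, 0.436).

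Fcrla, an intracellular relative of the Fc receptors found in B cells, showed the widest spread among the adult arrays. Its signals were 13.08, 11.57 and 7.04 in adult replicates 1, 2 and 3, against 6.81, 6.46 and 6.76 in E18 replicates 1, 2 and 3 (1419907_s_at). The E18 arrays lay within 0.19 (SD, n = 3) while the adult SD was 3.14, and adult replicate 3 was 0.23 above the highest E18 array. The difference of 3.88 (SE 1.35) did not pass (limma adjusted p = 0.152), although the groups did not overlap.

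Pax5 is the transcription factor that commits precursors to the B cell lineage, and Pou2af1 is a coactivator that B cells and plasma cells use at octamer sites with the Oct proteins. Pax5 was dim, with 7.90, 7.06 and 6.39 in adult replicates 1, 2 and 3, against 6.0, 5.58 and 5.95 in E18 replicates 1, 2 and 3 (1454401_at). Only E18 replicate 1 reached the floor among the E18 arrays, and the difference of 1.27 did not pass (limma adjusted p = 0.2). Pou2af1 had signals of 11.75, 11.40 and 9.59 in adult replicates 1, 2 and 3, against 6.06, 5.94 and 7.22 in E18 replicates 1, 2 and 3 (1416957_at). It had the largest difference of the 9 genes, 4.51 (10.91 ± 1.16 against 6.4 ± 0.71, SD, n = 3 each, SE 0.64, limma adjusted p = 0.0111), and adult replicate 3 stood 2.37 above the highest E18 array. The call was lost without adult replicate 2 (adjusted p = 0.059), and on leaving out either E18 replicate 1 (adjusted p = 0.0704) or E18 replicate 2 (adjusted p = 0.0712). In the same fits calls over all genes also fell, from 798 to 226, 69 and 66. E18 replicates 1 and 2 were the closest arrays, and with their mean counted as 1 sample neither Pou2af1 (adjusted p = 0.0697) nor Cd22 (adjusted p = 0.108) passed. Calls over all genes fell to 63 with that mean.

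Adult and E18 arrays were fully separated for 5 of the 9 genes, Cd79a, Cd22, Pax5, Fcrla and Pou2af1, and all adult arrays were above all E18 arrays for 10.1% of genes tested. At an unadjusted p under 0.05 the count was 8 of 9, where 21.6% of all genes tested lay. Both counts include Cd79a and Pax5, which entered the test only through the adult arrays, and the second also includes Blk. Adult replicates 1 and 2 were both above every E18 array for 9 of 9, against 18% of all genes tested. Without adult replicate 3 all 9 genes passed in the direction of the adult arrays, where 5.26% of genes did, with limma adjusted p-values from 0.00108 for Cd22 to 0.0375 for Pax5. Leaving that array out was decided with the earlier results known, so the count of 9 describes adult replicates 1 and 2. Both counts of 9 include Cd79a, Pax5 and Blk, which entered the test only through the adult arrays.

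Taken within replicates 1 and 2 and within replicate 3, the contrast split in the same way. Spike-in signal was not matched in replicates 1 and 2, with median log2 signals of 8.1 and 9.63 in adult against 7.2 and 6.6 in E18. In replicates 1 and 2 alone the median difference was 5.16, against -0.32 over all genes tested. There 8 of 9 passed, all but Pax5 (limma adjusted p = 0.054), where 6.01% of genes passed higher. The largest differences there were 6.08 for Ms4a1, 5.69 for Fcrla and 5.58 for Pou2af1. The 8 that passed include Cd79a and Blk, which entered the test only through the adult arrays. Within replicate 3, which is 1 array against 1 and has no test, the median was 0.28, against 0.01 over all genes tested. Pou2af1 was 2.37 higher and Cd22 1.73 higher in adult replicate 3 than in E18 replicate 3, while Bank1 was 1.51 lower, Ms4a1 0.85 lower, Blk 0.39 lower and Cd79b 0.25 lower.

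**Figure D2:**
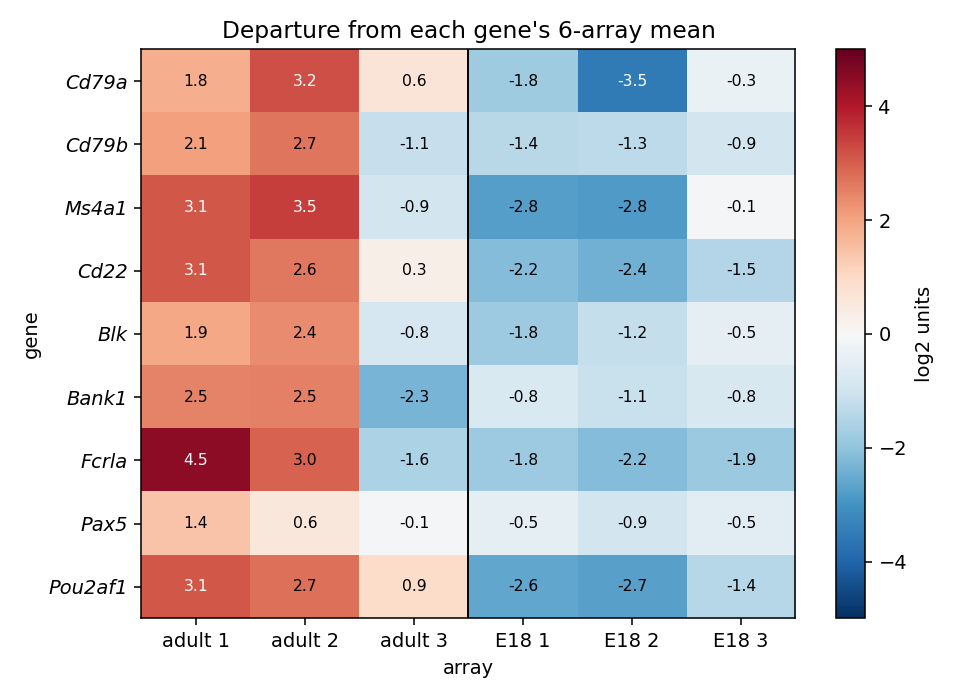
Log2 signal of each gene in each array as a departure from its mean over the 6 arrays, in log2 units, with adult arrays in the 3 columns on the left and E18 arrays on the right. Departures in adult replicates 1 and 2 run from 0.58 to 4.46, those in adult replicate 3 from -2.30 for Bank1 to 0.93 for Pou2af1.

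The size of the gap inside the adult group varied among the genes. Relative to the mean of adult replicates 1 and 2, adult replicate 3 was lower by 38.9-fold for Fcrla, 27.7-fold for Bank1, 18.4-fold for Ms4a1 and 11.4-fold for Cd79b. It was lower by 8.04-fold for Blk, 6.05-fold for Cd22, 3.96-fold for Pou2af1, 3.70-fold for Cd79a and 2.13-fold for Pax5. The median over the 9 genes was -3.01 log2 units, against 0.24 over all genes tested, and adult replicate 3 was the lowest adult array for 29.2% of all genes tested. Among the E18 arrays replicate 3 was highest for 6 of the 9, against 38.1% of all genes tested. The summed linear signal of the 9 probe sets was 35861, 32281 and 3250 in adult replicates 1, 2 and 3, against 1450, 1306 and 2566 in E18 replicates 1, 2 and 3, so that the third replicates of the groups differed least.

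Further probe sets existed for 4 of the genes, 5 in all, that the choice by brightness set aside. The mean of each was higher in the adult arrays. The other Ms4a1 probe set, 1450912_at, gave 12.51, 11.50 and 5.78 in adult replicates 1, 2 and 3, against 4.91, 5.34 and 7.18 in E18 replicates 1, 2 and 3, again with E18 replicate 3 above adult replicate 3. The other probe sets of Fcrla had differences of 3.97 and 3.47, and that of Cd22 a difference of 2.81. Only the other Pax5 probe set, 1421765_at, did not have its lowest adult value in replicate 3, with 3.92, 6.51 and 6.15 in adult replicates 1, 2 and 3, and 3.15, 2.40 and 2.31 in E18 replicates 1, 2 and 3. Of these 5 probe sets, the Ms4a1 one reached the floor on 3 of 6 arrays and the other 4 on 2.

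Promoter sequences are shown for the 2 genes that passed, Cd22 and Pou2af1, and for the 2 with the widest gap inside the adult group, Fcrla and Bank1. They are RefSeq sequences of GRCm38.p6, from 250 bases before to 50 bases after the annotated start, 5′ to 3′ on the gene's strand. Sequences for 6 of the 9 genes were in the table used. Capitals mark matches on either strand to 1 of 5 motifs bound by factors of B cell development, chosen after the sequences were seen: the octamer ATGCAAAT, the EBF core CCCNNGGG, the PU.1 motif GAGGAAGT, the ETS motif CAGGAAGT and the E box CAGGTG.
Cd22, chr7:30878979-30879278, minus strand: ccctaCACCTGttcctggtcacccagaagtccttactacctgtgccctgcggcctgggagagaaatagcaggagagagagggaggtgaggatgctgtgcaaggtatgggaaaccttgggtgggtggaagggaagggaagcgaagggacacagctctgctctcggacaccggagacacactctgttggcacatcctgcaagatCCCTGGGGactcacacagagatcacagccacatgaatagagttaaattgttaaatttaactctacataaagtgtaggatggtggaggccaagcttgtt
Pou2af1, chr9:51213440-51213739, plus strand: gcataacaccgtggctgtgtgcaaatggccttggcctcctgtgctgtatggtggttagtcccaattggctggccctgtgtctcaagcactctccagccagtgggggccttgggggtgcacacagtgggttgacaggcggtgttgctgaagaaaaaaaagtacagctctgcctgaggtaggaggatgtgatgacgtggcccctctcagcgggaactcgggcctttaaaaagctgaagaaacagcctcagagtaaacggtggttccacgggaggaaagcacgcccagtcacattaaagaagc
Fcrla, chr1:170927534-170927833, minus strand: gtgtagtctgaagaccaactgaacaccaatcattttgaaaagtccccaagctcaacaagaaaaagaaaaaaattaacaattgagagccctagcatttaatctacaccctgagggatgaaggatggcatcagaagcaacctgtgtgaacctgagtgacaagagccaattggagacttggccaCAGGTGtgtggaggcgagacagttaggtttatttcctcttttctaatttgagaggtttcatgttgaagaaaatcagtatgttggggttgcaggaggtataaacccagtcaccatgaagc
Bank1, chr3:136326017-136326316, minus strand: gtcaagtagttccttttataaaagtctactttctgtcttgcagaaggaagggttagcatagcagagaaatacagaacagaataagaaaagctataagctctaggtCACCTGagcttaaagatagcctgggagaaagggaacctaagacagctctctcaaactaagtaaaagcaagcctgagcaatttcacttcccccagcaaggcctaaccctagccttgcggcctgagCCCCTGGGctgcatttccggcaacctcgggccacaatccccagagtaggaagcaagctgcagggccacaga

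The E box was found in 4 of the 6 promoters, those of Fcrla, Bank1, Cd79a and Cd22, and in 20.2% of the 32851 promoters of the same length. The EBF core was found in those of Cd22 and Bank1, against 13.7% of all promoters, and the ETS motif in that of Cd79a alone, against 3.33%. No marked matches overlapped. The octamer and the PU.1 motif were in none of the 6, and in 1.74% and 3.20% of all promoters. None of the 5 motifs was in the windows of Pax5 and Pou2af1. These matches describe letters in a window, and the arrays measured no binding.

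B cell genes outside the 9 were read from lists compiled from general knowledge with earlier results known. In these and the other lists below, counts that rose stand beside 1.41% of all genes tested. Of the genes called, Blnk, Spib, Ccr7, Fcmr, Jchain and Cd2 reached the floor on 1 E18 array. Ikzf3, Cd28 and Prf1 reached it on 2, and Tnfrsf17, Cd247, Klre1 and Klrk1 on 0. Each reached it on 3 adult arrays, so these genes entered the test only through the adult arrays, where they were higher. Of 17 tested genes of B cell receptor signalling 2 rose, 0 fell and 15 missed the threshold, and their median was 0.46. Blnk, the adaptor that couples the receptor to phospholipase, rose by 4.94 (SE 0.54, limma adjusted p = 0.00577). Its signals were 9.94, 11.14 and 10.99 in adult replicates 1, 2 and 3, against 5.16, 5.39 and 6.71 in E18 replicates 1, 2 and 3, so that it was not low in adult replicate 3. Cd72, an inhibitory B cell receptor, rose by 3.02 (adjusted p = 0.0116).

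Of 15 transcription factors of the lineage, 4 rose, 0 fell and 11 missed the threshold (median 1.45). Spib, an ETS factor of B cells and plasmacytoid dendritic cells, rose by 4.0 (limma adjusted p = 0.0184), with 10.67, 10.78 and 8.78 in adult replicates 1, 2 and 3, against 5.54, 5.60 and 7.08 in E18 replicates 1, 2 and 3. Ikzf3, which encodes the lymphoid zinc finger protein Aiolos, rose by 3.27 (adjusted p = 0.0499), Irf4, needed for plasma cells, by 2.83 (adjusted p = 0.0189) and Bcl6, the germinal centre repressor, by 1.76 (adjusted p = 0.0492). Irf4 was highest in adult replicate 3, with 8.77, 9.61 and 10.40 in adult replicates 1, 2 and 3, against 6.38, 6.82 and 7.09 in E18 replicates 1, 2 and 3.

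Among 17 tested surface and homing genes of mature B cells 6 rose, 0 fell and 11 missed the threshold (median 1.82). The lymph node homing receptor Ccr7, which dendritic and T cells also carry, rose by 5.51 (limma adjusted p = 0.00868) and the IgM receptor Fcmr by 4.84 (adjusted p = 0.0393). Fcmr was bright in adult replicates 1 and 2, at 11.87 and 11.94, and 8.02 in adult replicate 3, against 5.36, 5.28 and 6.69 in E18 replicates 1, 2 and 3. Ccr7 instead was even across the adult arrays, at 10.64, 11.22 and 11.15 in replicates 1, 2 and 3. Ly6d, an early B lineage surface protein, rose by 3.77 (adjusted p = 0.0166) and the inhibitory receptor Btla by 3.18 (adjusted p = 0.00669).

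Of 5 tested genes of B cell precursors 1 rose, Il7r, the interleukin receptor chain of lymphoid precursors and T cells (2.95, limma adjusted p = 0.022), and 0 fell, with a median of -0.67. Cd93, also an endothelial and myeloid gene, did not pass (-1.03, adjusted p = 0.23). Of the 8 precursor genes on the array 3 were too dim to be tested.

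Antibody and plasma cell genes were not low in adult replicate 3. Of 3 tested immunoglobulin constant region genes 2 rose, Ighm and Igha, with a list median of 5.25. Ighm, the heavy chain of IgM, was higher by 5.25 (limma adjusted p = 0.00567), with 14.00, 12.48 and 12.63 in adult replicates 1, 2 and 3, against 7.14, 7.45 and 8.78 in E18 replicates 1, 2 and 3. Jchain, the joining chain of secreted antibodies, stood at 14.17, 14.22 and 14.66 in adult replicates 1, 2 and 3, against 4.08, 4.89 and 9.28 in E18 replicates 1, 2 and 3. Of 10 plasma cell genes 4 rose, 0 fell and 6 missed the threshold. The median of adult replicate 3 minus the mean of adult replicates 1 and 2 was 0.47, against -3.01 for the 9 B cell lineage genes. Immunoglobulin probe sets may bind transcripts of near-identical relatives.

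**Figure D3:**
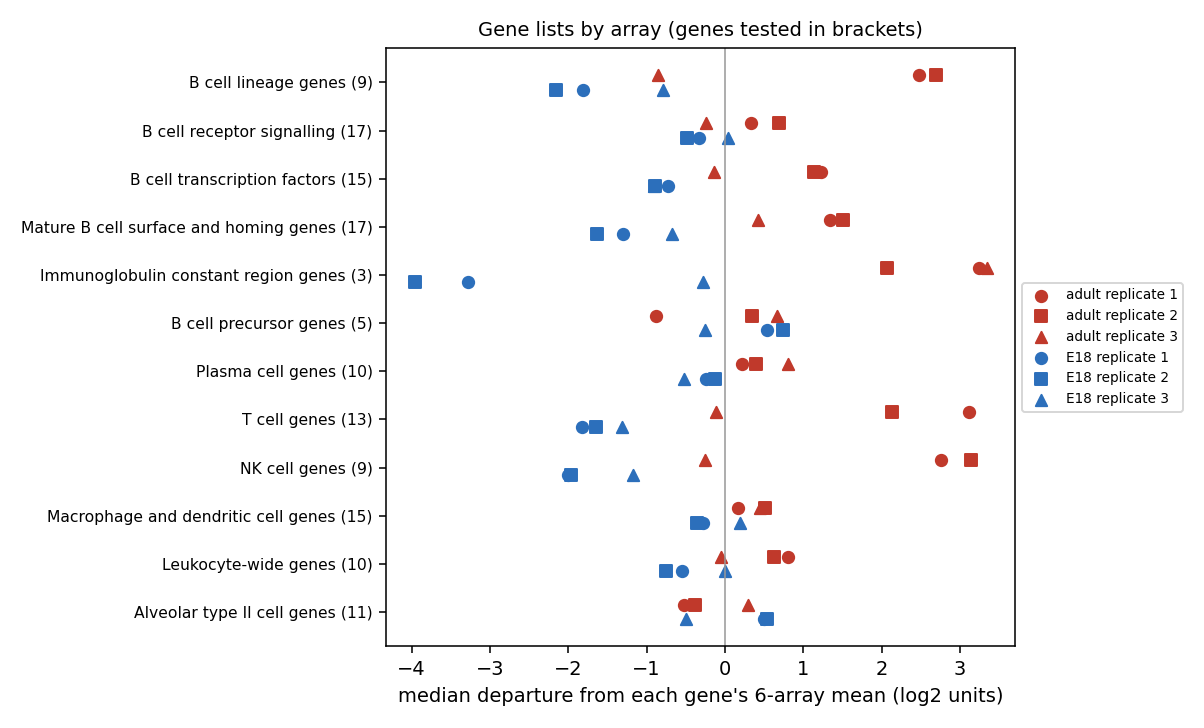
Median departure of each gene list from its genes' 6-array means, in log2 units, 1 symbol per array, with adult arrays in red above E18 arrays in blue and the number of genes tested in brackets. The B cell lineage, T cell and NK cell lists are high in adult replicates 1 and 2 and near or below 0 in adult replicate 3, while the plasma cell list is highest in adult replicate 3, at 0.80.

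Markers of T cells and NK cells were, like the B cell lineage genes, highest in adult replicates 1 and 2 and lower in adult replicate 3. Adult replicate 3 minus the mean of adult replicates 1 and 2 had medians of -2.36 for T cell and -3.42 for NK cell genes. The median was -3.01 for the 9. Adult replicate 3 was the lowest adult array for 12 of 13 T cell and 9 of 9 NK cell genes. That held for all 9 B cell lineage genes and 29.2% of all genes tested. Within replicate 3, which is 1 array against 1, the lists differed. The median of adult replicate 3 minus E18 replicate 3 was 0.96 for T cell and 1.57 for NK cell genes, against 0.28 for the 9. All adult arrays lay above all E18 arrays for 10 of 13 T cell and 7 of 9 NK cell genes. That held for 5 of the 9 B cell lineage genes and 10.1% of all genes tested. Of 13 tested T cell genes 5 rose, 0 fell and 8 missed the threshold (median 3.28), where 1.41% of all genes tested were called higher. Of 9 NK cell genes 5 rose, 0 fell and 4 missed the threshold (median 3.84). Among those 5, Klre1 and Prf1 were just under the threshold (limma adjusted p = 0.0499 each). The median departure of the T cell list was 3.11, 2.13 and -0.12 in adult replicates 1, 2 and 3, against -1.83, -1.65 and -1.32 in E18 replicates 1, 2 and 3. For the 9 B cell lineage genes it was 2.47, 2.69 and -0.85 in adult replicates 1, 2 and 3, against -1.81, -2.16 and -0.79 in E18 replicates 1, 2 and 3. Summed linear signals of the 17 T cell genes on the array ranged from 3722 to 37936 in the adult arrays and from 2114 to 2486 in the E18 arrays. Of these 17 genes 16, 17 and 13 reached the floor in adult replicates 1, 2 and 3, against 6, 10 and 7 in E18 replicates 1, 2 and 3. Of the CD3 chains of the T cell receptor complex, Cd3e and Cd3d were under the floor in all 3 E18 arrays and Cd3g reached it in 1.

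The 11 NK cell genes on the array summed to 3625 to 48444 in the adult arrays and 872 to 1698 in the E18 arrays, and 9 or 10 of them reached the floor in each adult array, against 4 or 5 in each E18 array. Leukocyte-wide genes were above the floor in every array, with 0 of 10 passing and a median of 0.78. The brightest, Cytip and Laptm5, were bright in both groups. In E18 replicates 1, 2 and 3 Cytip had 14.17, 14.04 and 14.15, and Laptm5 13.82, 13.72 and 13.43. Of 15 macrophage and dendritic cell genes 1 rose, Flt3, a dendritic cell growth factor receptor that was brightest in adult replicate 3, 0 fell and 14 missed the threshold (median 0.42). Csf1r, the brightest of those that missed it, had 15.60, 14.52 and 13.11 in adult replicates 1, 2 and 3. In E18 replicates 1, 2 and 3 it had 13.86, 13.77 and 13.95. How far other lymphocytes took part in the differences of the B cell lineage genes was not tested.

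Alveolar type II cell genes ran the other way inside the adult group. Of 11 tested genes 0 passed in either direction (median -0.22). The median of adult replicate 3 minus the mean of adult replicates 1 and 2 was 0.92 for these genes, none of which had its lowest adult value in replicate 3. Epcam, one of the sort genes, had 7.85, 8.50 and 10.68 in adult replicates 1, 2 and 3, against 10.69, 11.31 and 9.26 in E18 replicates 1, 2 and 3. Sftpc, the defining surfactant protein of type II cells, was bright in all 6 arrays, at 14.67, 14.50 and 14.52 in adult replicates 1, 2 and 3, against 14.05, 13.90 and 14.17 in E18 replicates 1, 2 and 3. Sftpa1 had 12.39, 13.30 and 13.95 in adult replicates 1, 2 and 3, against 13.32, 13.32 and 11.39 in E18 replicates 1, 2 and 3.

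**Figure D4:**
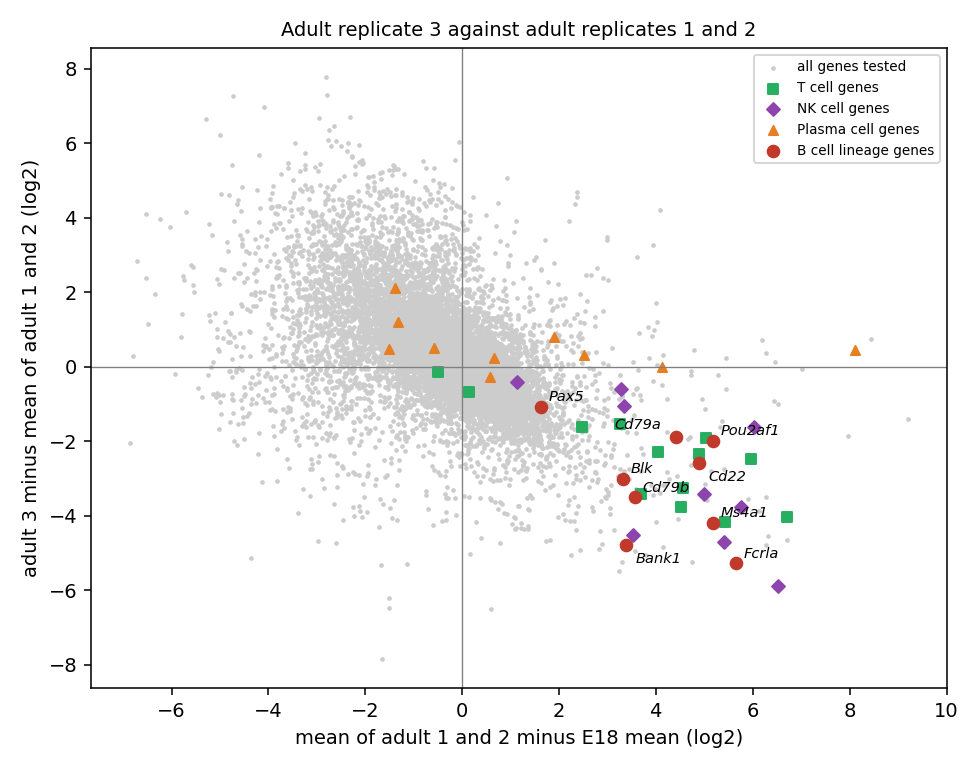
Each tested gene by the mean of adult replicates 1 and 2 minus the E18 mean (x axis, log2 units) and adult replicate 3 minus the mean of adult replicates 1 and 2 (y axis, log2 units), with the B cell lineage genes named. Both axes contain adult replicates 1 and 2, which by itself tilts the cloud downward to the right. The 9 genes lie at -1.09 to -5.28 on the y axis, among T cell and NK cell genes, and the plasma cell genes Mzb1 and Jchain lie near or above 0.

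The genes whose profiles over the 6 arrays came closest to the mean profile of the 9 were Ptprcap, Ltb, Skap1, Thy1, Ccr9 and Spn. Predicted clones, with symbols ending in Rik or starting with Gm and a digit, were left out of this ranking. Likeness was measured as the root mean square difference between profiles centred on their own means, in log2 units over 6 arrays. It was 0.12 for Ptprcap, a partner protein of the leukocyte phosphatase Ptprc, 0.32 for Ltb, the lymphotoxin beta chain, and 0.33 for Skap1, a T cell adaptor. It was 0.36 for Thy1, a T cell surface glycoprotein, 0.36 for Ccr9, a gut homing receptor, and 0.39 for Spn, the leukocyte sialoprotein. The nearest of the 9 genes themselves was Cd79b at 0.46, and the farthest was Pax5 at 1.19. Ptprcap had signals of 10.94, 11.10 and 7.64 in adult replicates 1, 2 and 3, against 6.68, 6.53 and 7.58 in E18 replicates 1, 2 and 3, and did not pass (limma adjusted p = 0.11).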

How the data were processed

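The authors deposited a linear signal intensity per probe set, for which the submitters' processing notes name MAS5 and Affymetrix Expression Console. The mean of each array without its lowest and highest values was 500.003 or 500.004. Here the 45101 values per array were log2 transformed with no pseudocount and no further normalization. Of the probe sets, 64 were controls and 34945 had 1 gene symbol in the array's probe table, 932 several and 9160 none. By gene ID 34754 of them matched RefSeq of GRCm38.p6, and 0 symbols changed.

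The brightest probe set of each of 18193 genes was kept. The 13335 genes at or above the 40th percentile of the array on at least 3 of 6 arrays were tested with limma 3.58.1 (R 4.3.3), adult against E18, 3 arrays each, with an intensity trend, and 798 genes were called, 188 higher and 610 lower in adult. The number of arrays limits the precision. The steps were tested on simulated data.

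The 9 genes and the lists were chosen with earlier results of these data known. Named genes outside the 9 were drawn from up to 4 genes called per list by size of difference, or the brightest up to 2 where fewer than 2 were called. The 6 most alike profiles, predicted clones left out, were also named. Chosen after their values were seen were Epcam, Cd3e, Cd3d and Cd3g. The alternatives were the scaling, filter, floor, probe set summary, variance prior, blocks, averaged E18 arrays and arrays left out.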

Additional observations from a re-analysis of the deposited data

How the results depend on the processing

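Each of the 9 genes was tested under 15 to 17 alternatives, which gave 148 differences, 1 per gene and alternative. The alternatives reuse the same arrays, so these differences are not independent of each other. All 148 were positive. Of these, 124 stayed on the same side of the threshold, while 10 lost a call and 14 gained one. The number of the 9 called higher was 2, and it was 8 in replicates 1 and 2 only, 0 with E18 replicates 1 and 2 averaged as 1 sample, and 3 with arrays centred on their medians, where Cd79a passed (adjusted p = 0.0456). Leaving out 1 array gave 0 to 9, with 9 without adult replicate 3, 1 without adult replicate 1 or E18 replicate 3, and 0 without adult replicate 2, E18 replicate 1 or E18 replicate 2. Over all genes 798 were called, 2996 in replicates 1 and 2 only, 63 with those E18 arrays averaged, and 66 to 2770 with 1 array left out. Of 125 genes in the lists 30 were called, 70 in replicates 1 and 2 only, 5 with E18 arrays averaged, and 5 to 61 with 1 array left out; the counts for lists, apart from quantile normalization and the fit without adult replicate 3, were chosen after seeing the data. Labels share replicate numbers between groups, but the correlations of the deviations, 0.036, -0.14 and -0.058 for numbers 1, 2 and 3, did not show that the numbers pair the samples. The replicate block called 492 genes, 2 of the 9 and 19 list genes. Replicates numbered 3 share the bright poly-A spike-ins, and with that split as a block 897 genes, 2 of the 9 and 33 list genes were called. Higher calls made up 23.6% of all calls, and 29.2% after quantile normalization. The median difference of all genes was -0.17, -0.05 after quantile normalization and -0.02 with centred arrays. Fcrla was not testable with probe sets averaged, and Cd79a, Blk, Pax5 and Fcrla not with the filter at the 60th percentile.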
